A study of Mus musculus with 18 samples.

Results

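The 9 RNA sequencing libraries of Hepa1-6, a mouse liver cancer cell line, were compared by the replicate number in their labels: the 3 libraries numbered 1 against the 6 numbered 2 and 3. They are 9 of the 18 libraries in the series, which also holds 9 of the mouse melanoma line B16. Both lines carried a control guide (sgCtrl, labelled wild type) or one of the guides sgNcor1-1 and sgNcor1-2 (labelled Ncor1 knockout), with 3 libraries for each guide, and all RNA was polyadenylated. Ncor1 encodes a corepressor that brings a histone deacetylase to the targets of nuclear receptors, and the series title asks about its part in mismatch repair. No label says whether the cells of a guide are 1 clone, or that the numbers stand for a culture, a day or a sequencing batch, so they are used here as numbers only. A library is named by its guide and number, for example sgCtrl 1.

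The grouping was chosen from these same libraries. On the first principal component of log2 CPM (counts scaled to the total of each library), which held 53.3% of the variance, sgCtrl 1 stood at -27.4, sgNcor1-1 1 at -71.9 and sgNcor1-2 1 at -70.1, while the 6 other libraries lay between 14.2 and 37.2. What follows on number 1 against 2 and 3 in Hepa1-6 is therefore a description of how these libraries differ, with no test. The difference of the number 1 shift between guides and that of number 2 against 3 come from the same 9 libraries, whose places on this component were known, so their counts of genes called are a description too. Number 1 against 2 and 3 in B16 was tested in libraries that the choice did not use.

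Cultured tumour cells move between a few broad states that leave a mark on many transcripts at once. When oxygen or nutrients run low, hypoxia-inducible factors raise glycolytic enzymes and genes such as Vegfa, and the kinases of the integrated stress response raise the factor ATF4 and its targets for amino acid supply and cell death. G2/M genes, which are high in dividing cells, are under the control of the DREAM and MMB complexes. YAP/TEAD, TGF-beta and NF-kB respond to cell density, matrix and inflammatory ligands.

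Library totals lay between 17689335 and 30819689 counts in Hepa1-6 and between 15663983 and 25263749 in B16. The share of counts from mitochondrially encoded transcripts was 3.04% in sgCtrl 1, 2.43% in sgNcor1-1 1 and 3.11% in sgNcor1-2 1, and between 1.94% and 2.99% in the other Hepa1-6 libraries. Ncor1 itself stood at 266, 264 and 222 CPM in sgCtrl 1, 2 and 3, at 197, 130 and 177 CPM with sgNcor1-1 and at 149, 140 and 186 CPM with sgNcor1-2. The 3 control libraries lay above all 6 with an Ncor1 guide, and libraries numbered 1 lay on both sides of the others. The 66 hepatocyte genes looked at summed to between 3780 and 5370 CPM in the libraries numbered 1 and between 3020 and 4050 CPM in the others, with 4 of the 66 at 0 in every library, and to between 1260 and 2860 CPM in B16. Alb and Afp, the albumins of the adult and the fetal liver, were present in all 9. The sum of 12 melanocyte markers ran from 337 to 688 CPM in Hepa1-6 and from 7140 to 24300 CPM in B16. Nearly all of the Hepa1-6 sum was Gpnmb, at 338 to 503 CPM in number 1 and 333 to 685 CPM in the others. In Hepa1-6, 9 of the 12 had a mean under 1 CPM, 2 of them at 0 in every library.

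Fitted over all 9 libraries with guide as a covariate, 5191 of 12458 genes (41.7%) had an adjusted p under 0.05 in edgeR, 2618 higher (21%) and 2573 lower (20.7%) in number 1. These counts come from the contrast that set the grouping and are not read further. A total of 1982 genes differed by more than 2-fold, 881 higher and 1101 lower. In 3088 genes (24.8%) number 1 was above both other libraries in each of the 3 guides, and in 3015 (24.2%) it was below both. Those 2 percentages are the background for the counts of genes higher or lower in every guide given below. A shift is the log2 fold of number 1 over numbers 2 and 3 from that fit, and a shift within a guide is the difference of log2 CPM. The median shift over all genes was 0.00.

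Among named genes with a mean of at least 5 CPM and the same direction in every guide, the 12 furthest above 0 were led by chemokines. Cxcl2, Ppbp and Cxcl1 encode CXC chemokines that draw neutrophils, and lie near each other on chromosome 5 (mm10), Ppbp at chr5:90768518-90770063, Cxcl1 at chr5:90891245-90893121 and Cxcl2 at chr5:90903899-90905938. Cxcl2 stood at 12.5, 1.101 and 2.14 CPM in sgCtrl 1, 2 and 3, at 11.5, 0.856 and 0.583 CPM with sgNcor1-1 and at 15.5, 1.15 and 0.898 CPM with sgNcor1-2. Cxcl1 stood at 30.6, 4.41 and 6.42 CPM in sgCtrl 1, 2 and 3, at 31.5, 2.85 and 3.34 CPM with sgNcor1-1 and at 38.5, 2.76 and 4.79 CPM with sgNcor1-2. Both were high in the 3 libraries numbered 1 whatever the guide, with no overlap, and their shifts were 3.62 ± 0.27 (SE) and 3.08 ± 0.23. Ppbp, at 10.3 CPM in sgCtrl 1, 32.5 in sgNcor1-1 1 and 37.0 in sgNcor1-2 1, lay between 1.43 and 3.38 CPM in the other 6. The chemokine Cxcl5 stood at 5.38, 9.95 and 13.0 CPM in the libraries numbered 1 and at 1.57 to 4.09 CPM in the others. Nfkbia, which encodes the inhibitor of NF-kB and is its target, stood at 40.0, 51.6 and 58.0 CPM in number 1 of sgCtrl, sgNcor1-1 and sgNcor1-2 and between 12.2 and 26.2 CPM in the others. The 23 NF-kB targets measured were not shifted as a whole to that extent, with a median of 0.26, 14 above 0, and 9 higher and 4 lower in every guide. Tnfaip3, another NF-kB target, stood at 53.5, 28.5 and 25.8 CPM in number 1 of the 3 guides, and between 20.8 and 47.6 CPM in the others, with overlap and a shift of -0.05 ± 0.25.

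The rest of this set had varied roles. Mmp24, a membrane-anchored matrix metalloproteinase, stood at 149, 23.03 and 27.0 CPM in sgCtrl 1, 2 and 3, at 139, 35.9 and 28.9 CPM with sgNcor1-1 and at 150, 36.8 and 24.7 CPM with sgNcor1-2. Its 3 number 1 values lay close together, and the shift stood for a 5.01-fold difference. Plpp3, a phosphatase of lipid phosphates at the plasma membrane, stood at 32.9, 41.1 and 39.1 CPM in number 1 of sgCtrl, sgNcor1-1 and sgNcor1-2 and between 3.09 and 7.06 CPM in the other libraries. Drd3, a dopamine receptor, had a shift of 3.22 and Sema3c, a secreted semaphorin, one of 2.55. The lipid phosphatase Inpp4b, the adaptor Sorbs2 and Pigg, an enzyme of GPI anchor synthesis, had shifts of 2.36, 2.45 and 2.28, with no overlap of the 3 libraries numbered 1 and the other 6. Hmgn2, a nucleosome-binding protein, differed more between guides: it stood at 18.5 CPM in sgCtrl 1 against 95.5 and 101 CPM in sgNcor1-1 1 and sgNcor1-2 1, with 7.88 to 13.6 CPM elsewhere. Hmgn2 has many near-identical gene copies, so its count may hold reads of these. Rmi2, a subunit of the complex that dissolves recombination intermediates, closed the 12 at 2.28, and Bbs12, at 2.26, was the first outside it. Rmi2 at 2.36 CPM in sgCtrl 1 lay within the range of the other libraries (0.751 to 4.00 CPM), though above both others of its guide.

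The 12 genes furthest below 0 took in detoxifying and stress-induced genes. Hmox1, the heme oxygenase that degrades heme, stood at 53.2, 285 and 216 CPM in sgCtrl 1, 2 and 3, at 9.54, 79.1 and 220.2 CPM with sgNcor1-1 and at 10.2, 110 and 167 CPM with sgNcor1-2. Selenbp1, a methanethiol oxidase, stood at 2.67, 27.2 and 32.2 CPM in sgCtrl 1, 2 and 3, at 4.65, 33.1 and 86.3 CPM with sgNcor1-1 and at 4.81, 39.8 and 51.4 CPM with sgNcor1-2. Both were low in the 3 libraries numbered 1 without overlap, and Selenbp1 was as low with the control guide as with the others (shifts of -3.43, -3.50 and -3.21 within sgCtrl, sgNcor1-1 and sgNcor1-2). Anxa10, an annexin, and Gpr182, an atypical chemokine receptor, had shifts of -3.54 and -3.47, with number 1 between 0.708 and 1.01 CPM and between 0.438 and 1.28 CPM. Btg4, which in oocytes directs the removal of maternal mRNA, had the lowest shift, -4.75, at 1.44, 0.135 and 0.157 CPM in number 1 of the 3 guides against 8.21 to 21.2 CPM in the others. Avil, an actin-binding protein of the villin family, and the collagen gene Col20a1 had shifts of -3.29 and -3.11, and D6Ertd527e, Fam71f2 and Nscme3l lay between -3.13 and -3.91. Aldh1l2, a mitochondrial enzyme of folate metabolism, and Nupr1, a stress-induced nuclear protein, belong to this set but depend strongly on the guide and are described with the difference between guides. Chchd10, at -3, was the first gene outside the 12.

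**Figure D1:**
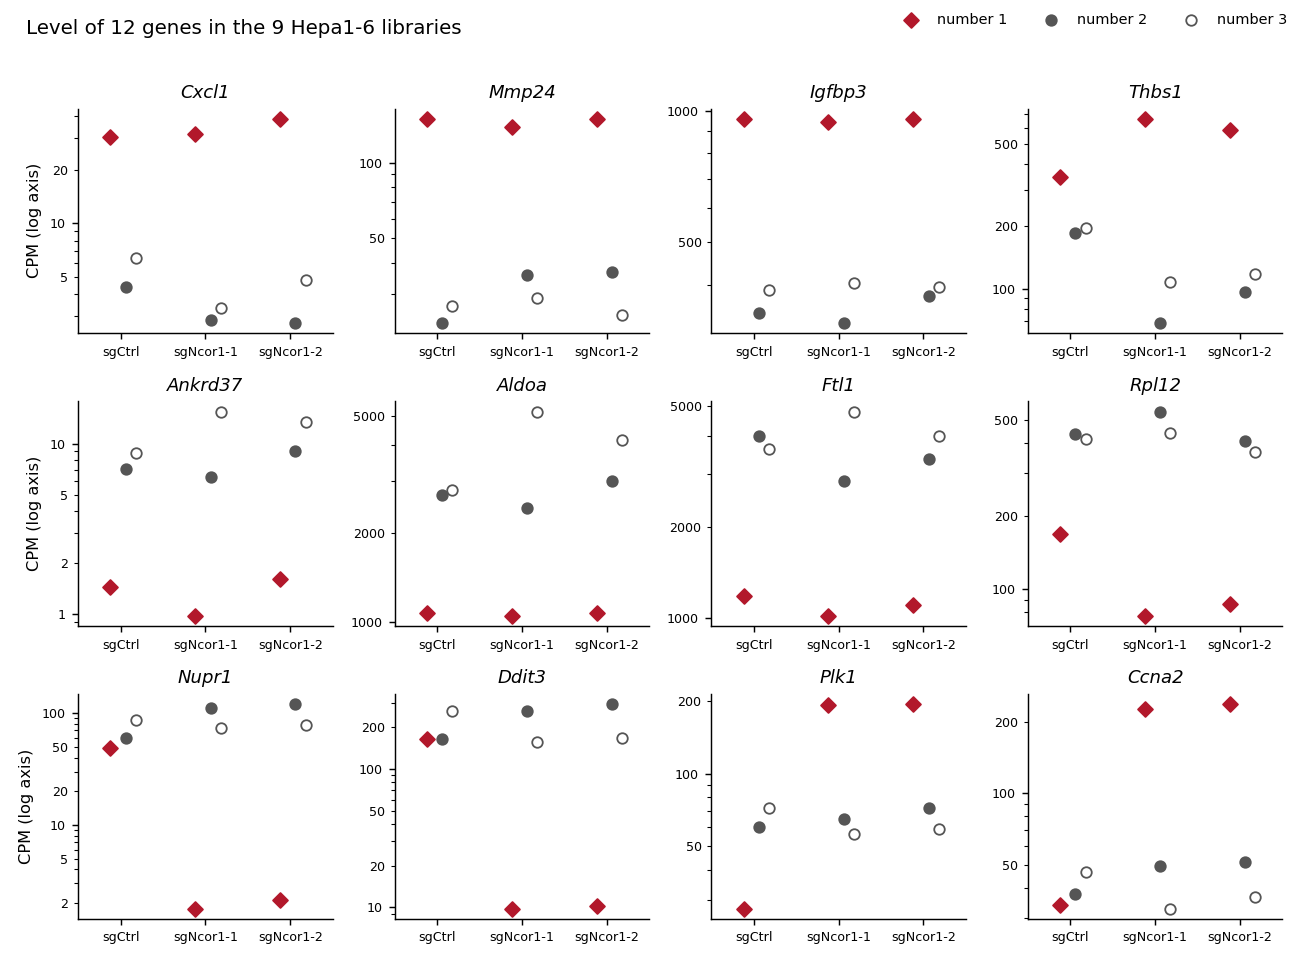
Levels of 12 genes in the 9 Hepa1-6 libraries, in CPM on a log axis, by guide, with number 1 as red diamonds, number 2 as filled circles and number 3 as open circles. In the top row and in the row from Ankrd37 to Rpl12 the red diamonds lie on the same side of both circles in every guide, whereas in the bottom row Plk1 and Ccna2 are low in number 1 with sgCtrl and high with the Ncor1 guides, and Nupr1 and Ddit3 are far lower in number 1 with the Ncor1 guides than with sgCtrl.

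Genes of the hypoxia response and of glycolysis were lower in number 1 in all 3 guides. Of 21 hypoxia genes tested, 19 had a shift below 0 and 17 were lower in every guide, with a median of -1.15, and within sgCtrl, sgNcor1-1 and sgNcor1-2 the medians were -0.88, -1.23 and -1.41. Of 17 glycolytic genes 13 lay below 0 and 12 were lower in every guide, with a median of -0.98 and medians by guide of -1.05, -0.98 and -0.84. The promoters of Ankrd37 and Bnip3 are shown. They were picked by the size of the shift among hypoxia and glycolysis genes with a promoter window and a mean of at least 5 CPM. Both hold the core of the hypoxia response element, ACGTG, in capitals on either strand. They are RefSeq windows of 300 bases on GRCm38.p6 (the assembly of mm10), each around a start that RefSeq lists for the gene, at chr8:45999801-46000100, minus strand for Ankrd37 and chr7:138909457-138909756, minus strand for Bnip3.
Ankrd37: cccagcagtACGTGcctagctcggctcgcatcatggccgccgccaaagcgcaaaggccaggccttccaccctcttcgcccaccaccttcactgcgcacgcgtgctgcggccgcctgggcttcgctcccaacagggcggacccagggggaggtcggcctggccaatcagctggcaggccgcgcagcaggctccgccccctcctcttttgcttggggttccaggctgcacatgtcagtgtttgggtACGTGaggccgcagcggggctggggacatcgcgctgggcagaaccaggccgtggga
Bnip3: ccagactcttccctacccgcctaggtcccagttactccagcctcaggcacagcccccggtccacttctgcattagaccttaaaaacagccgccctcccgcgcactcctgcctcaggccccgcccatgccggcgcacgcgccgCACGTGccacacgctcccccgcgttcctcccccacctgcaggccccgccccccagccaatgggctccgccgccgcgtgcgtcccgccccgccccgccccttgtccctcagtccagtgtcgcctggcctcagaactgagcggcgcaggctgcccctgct

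The window of Ankrd37 lies within the span of the gene, whose outer end on this strand is at 46000414. In Bnip3 the capitals are a palindrome that holds the motif once on each strand, and in Ankrd37 the motif occurs at 2 places. A promoter window was found for 9864 of the 12458 genes tested. ACGTG on either strand occurred in 14 of the 17 hypoxia genes with a window (82.4%) and in 12 of 17 glycolytic genes (70.6%), against 29.2% of all windows. These shares describe the sequence of the lists, not the shift, and whether the sites were bound was not tested.

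Ankrd37, an ankyrin repeat protein induced by hypoxia, stood at 1.44, 7.11 and 8.80 CPM in sgCtrl 1, 2 and 3, at 0.978, 6.39 and 15.4 CPM with sgNcor1-1 and at 1.60, 9.11 and 13.3 CPM with sgNcor1-2. Bnip3, a mitophagy receptor, stood at 59.8, 184 and 187 CPM in sgCtrl 1, 2 and 3, at 65.3, 209 and 437 CPM with sgNcor1-1 and at 68.2, 245 and 426 CPM with sgNcor1-2. The 3 libraries numbered 1 were close to each other and below all others for both genes, with shifts of -2.91 and -2.07. Vegfa, the angiogenic growth factor, was lower in number 1 of every guide, but less so with sgCtrl: it stood at 206, 325 and 337 CPM in sgCtrl 1, 2 and 3, at 83.0, 317 and 408 CPM with sgNcor1-1 and at 79.8, 361 and 462 CPM with sgNcor1-2. Ndrg1, a gene of stress and differentiation induced by hypoxia, stood at 283 CPM in sgCtrl 1 and at 44.2 and 46.4 CPM in number 1 of the Ncor1 guides, against 430.2 to 759 CPM elsewhere.

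Among glycolytic enzymes, Aldoa, the muscle-type aldolase, stood at 1073, 2707 and 2815 CPM in sgCtrl 1, 2 and 3, at 1051, 2444 and 5176 CPM with sgNcor1-1 and at 1072, 3021 and 4135 CPM with sgNcor1-2. Pgk1, phosphoglycerate kinase, stood at 698, 787 and 838 CPM in number 1 of sgCtrl, sgNcor1-1 and sgNcor1-2 and between 1629 and 3303 CPM in the others. Ldha, a subunit of lactate dehydrogenase, had a shift of -0.98 and Pfkp, a phosphofructokinase, one of -1.41. All 4 were lower in number 1 of each guide, and Aldoa stood within 1051 to 1073 CPM in the 3 libraries. Hexokinase Hk2, the first enzyme of the path, had a shift of 0.12 ± 0.11, at 89.9, 126 and 114 CPM in number 1 and 85.6 to 116 CPM in the others. Angptl4, a secreted inhibitor of lipoprotein lipase that hypoxia and PPAR ligands can each induce, went the other way: it stood at 22.8, 30.2 and 30.8 CPM in number 1 of the 3 guides and between 5.93 and 8.41 CPM elsewhere.

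Transcripts of cytosolic ribosomal proteins were lower in number 1 across nearly the whole set. Of 74 measured, 71 had a shift below 0 and 66 were lower in every guide, with a median of -0.56 and medians by guide of -0.44, -0.72 and -0.51. Rpl12 differed most, at 168, 434 and 417 CPM in sgCtrl 1, 2 and 3, at 77.5, 539 and 441 CPM with sgNcor1-1 and at 87.0, 409 and 367 CPM with sgNcor1-2. Rpl3 and Rps6 were lower in number 1 of every guide by less, with shifts of -0.69 and -0.64. Genes of ribosome biogenesis and MYC targets did not go with them: of 36, 31 lay above 0, with a median of 0.26. The median of this list for number 2 minus 3 was 0.28, no smaller than the shift of number 1. Odc1, the first enzyme of polyamine synthesis and a MYC target, stood at 387, 99.1 and 146 CPM in sgCtrl 1, 2 and 3, at 409, 243 and 99.0 CPM with sgNcor1-1 and at 413, 207 and 100 CPM with sgNcor1-2. Ribosomal protein genes have many processed copies in the genome, so their counts may hold reads assigned between near-identical sequences.

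The iron store Ftl1, ferritin light chain, stood at 1185, 3985 and 3611 CPM in sgCtrl 1, 2 and 3, at 1019, 2837 and 4805 CPM with sgNcor1-1 and at 1102, 3355 and 3997 CPM with sgNcor1-2. It was low in the 3 libraries numbered 1, as was Hmox1, which like Ftl1 is a target of the oxidative stress factor NRF2. Of the 24 NRF2 targets 15 lay below 0, and 11 were lower and 2 higher in every guide, with a median of -0.35. The fall was largest with sgCtrl. Medians within sgCtrl, sgNcor1-1 and sgNcor1-2 were -0.77, -0.19 and -0.1, with 3, 10 and 11 of the 24 above 0. Abcc3, an export pump and NRF2 target, was higher in number 1 (shift 1.18), and Nqo1, the quinone reductase often used to read NRF2, was at 2.42 CPM or less in all 9 libraries. Cd68, a lysosomal protein used as a macrophage marker, followed Ftl1, at 30.3, 10.5 and 12.7 CPM in number 1 of the 3 guides and between 47.0 and 105 CPM in the others. The 9 leukocyte markers as a list summed to 36.6 to 59.9 CPM in number 1 and 70.7 to 130 CPM in the others, and 6 of them were under 1 CPM in Hepa1-6. Of the 4 tested, Cd68 lay below 0 and the other 3 above (median 0.22), among them the monocyte receptor Cd14 at 0.08. The part of other cells in these values was not tested.

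Targets of TGF-beta and YAP/TEAD lay above 0 more often than below, and matrix genes were mixed. Of 30 genes of collagen, matrix and crosslinking, 19 had a shift above 0 (median 0.18), 10 were higher and 6 lower in every guide, and with sgNcor1-2 15 of 30 lay above 0 with a median of 0.00. Of 16 TGF-beta and SMAD targets 13 had a shift above 0, and 7 were higher and 1 lower in every guide (median 0.65). Of 22 YAP/TEAD targets 17 lay above 0, and 13 were higher and 4 lower in every guide (median 0.40). Thbs1, the matrix protein thrombospondin, stood at 348, 185 and 197 CPM in sgCtrl 1, 2 and 3, at 662, 68.3 and 108 CPM with sgNcor1-1 and at 583, 96.8 and 117 CPM with sgNcor1-2. Igfbp3, a secreted binding protein of insulin-like growth factors, stood at 959, 344 and 390 CPM in sgCtrl 1, 2 and 3, at 943, 327 and 404 CPM with sgNcor1-1 and at 961, 378 and 395 CPM with sgNcor1-2. Igfbp3 was about the same in all 3 libraries numbered 1, and both genes were above every other library. The matricellular genes Ccn1 and Ccn2, classic YAP/TEAD targets, had shifts of 1.79 and 1.14 and were higher in number 1 of every guide, while Ankrd1, another such target, was higher only within sgCtrl (386, 158 and 182 CPM in sgCtrl 1, 2 and 3). Ptpn14, a phosphatase that restrains YAP and is itself induced by it, stood lower in number 1, at 13.3 CPM in sgCtrl 1 against 17.2 and 15.7 CPM, and at 0.674 and 0.346 CPM in number 1 of sgNcor1-1 and sgNcor1-2 against 4.34 to 7.93 CPM. Smad7, a feedback inhibitor of TGF-beta signalling, was higher in number 1 of every guide (0.44 ± 0.10). Basement membrane genes Col4a1 and Nid1 and the fibronectin gene Fn1 had shifts of 1.05, 1.37 and 0.84. The fibroblast marker list summed to 1410 to 1590 CPM in number 1 and to 707 to 1220 CPM in the others, nearly all from decorin (Dcn), since 6 of its 8 genes, 2 of them at 0 in every library, were under 1 CPM; the part of other cells in the matrix values was not tested.

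Several smaller sets had a median below 0 in every guide. Of 16 circadian clock genes 13 had a shift below 0 and 10 were lower in every guide (median -0.62). Dbp, a clock output factor, stood at 5.54, 34.7 and 27.7 CPM in sgCtrl 1, 2 and 3, at 7.82, 28.1 and 47.6 CPM with sgNcor1-1 and at 7.64, 41.1 and 45.2 CPM with sgNcor1-2. Nr1d1, the clock repressor REV-ERBalpha, which acts through NCOR1, and Per1 had shifts of -1.66 and -1.56. All 12 nuclear long noncoding RNAs had a shift below 0, with 7 lower in every guide (median -0.73), and Neat1, the RNA scaffold of paraspeckles, stood at 37.7, 228 and 270 CPM in sgCtrl 1, 2 and 3 and was listed at 0 in all 6 libraries with an Ncor1 guide. Malat1, another abundant one, had shifts of -0.61, 0.23 and -0.23 within sgCtrl, sgNcor1-1 and sgNcor1-2. Of 13 replication-dependent histone genes 12 lay below 0 (median -0.72) and 5 were lower in every guide. Within sgCtrl 5 of 13 lay above 0. Their median for number 2 minus 3 was -0.52, so numbers 2 and 3 differed in them too. The mRNA of this class ends in a stem loop instead of the poly(A) tail that the library selects for. H1f2, a linker histone, stood at 78.4, 64.2 and 64.6 CPM in number 1 of the 3 guides and between 87.9 and 252 CPM in the others.

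Interferon-stimulated genes and MHC class I presentation lay mostly below 0, with medians of -0.34 over 51 genes and -0.48 over 19. Stat2, the factor that carries type I interferon signals, stood at 13.6, 68.8 and 53.2 CPM in sgCtrl 1, 2 and 3, at 9.00, 30.8 and 51.9 CPM with sgNcor1-1 and at 10.2, 33.5 and 46.2 CPM with sgNcor1-2. The interferon regulatory factor Irf7 had a shift of -1.97. B2m, the invariant chain of MHC class I, stood at 506, 277 and 291 CPM in number 1 of the 3 guides and between 278 and 521 CPM in the others (shift -0.23 ± 0.18). Hepatocyte genes were mixed, with 22 of 36 above 0 and a median of 0.31: Apob, the backbone of lipoproteins, stood at 80.0, 179 and 151 CPM in number 1 and between 33.9 and 41.0 CPM elsewhere, whereas the fibrinogen gene Fgb had a shift of -1.25. The cholangiocyte keratin Krt19 stood at 1.85, 1.08 and 1.101 CPM in number 1 and between 2.63 and 11.1 CPM in the others. Sox9, a transcription factor from the same list of 5 cholangiocyte markers, had a shift of 0.68 the other way, and the list had 2 above 0, 3 below and a median of -0.60.

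**Figure D2:**
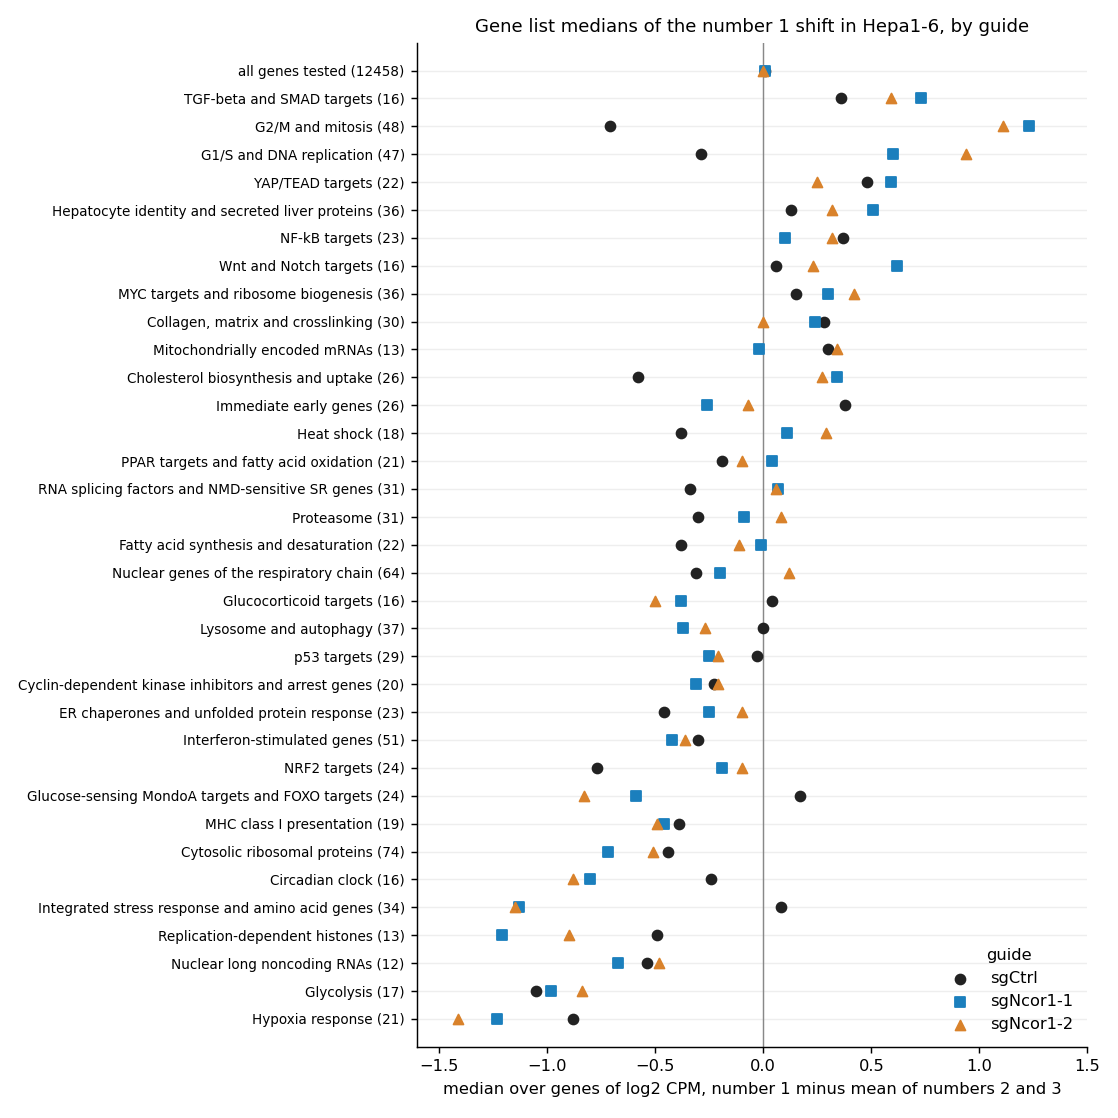
Median over the genes of each list of the log2 CPM difference between number 1 and the mean of numbers 2 and 3, within each guide, in Hepa1-6; the number of genes measured is in brackets, lists are ordered by the median shift of the fit, and all genes tested are at the top. Hypoxia and glycolysis lie between -0.84 and -1.41 in all 3 guides, while the G2/M list lies at -0.71 with sgCtrl and at 1.23 and 1.11 with the Ncor1 guides.

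The number 1 libraries did not share 1 shift in full. Across 12458 genes the shift within sgNcor1-1 correlated with that within sgNcor1-2 at a Pearson r of 0.91, and each with that within sgCtrl at 0.61 and 0.59, as a description across genes. Its SD over genes was 0.73 in sgCtrl and 0.92 and 0.91 with the Ncor1 guides. In 318 genes number 1 was over 2-fold higher in all 3 guides (2.55%), and in 454 it was over 2-fold lower in all 3 (3.64%). With both Ncor1 guides, 901 genes (7.23%) were over 2-fold higher and 1078 (8.65%) over 2-fold lower, of which 173 and 124 lay on the other side of 0 in sgCtrl.

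In cell division genes and in those of the integrated stress response, sgCtrl 1 differed from the other libraries numbered 1. The difference is the shift with the Ncor1 guides minus that with sgCtrl. Of 48 G2/M genes, all 48 had a difference above 0, with a median of 1.89 against -0.04 over all genes. Of 34 genes of the integrated stress response and amino acid supply, 33 lay below 0 (median -1.14). The edgeR fit called 77 genes (0.618%), 47 higher (0.377%) and 30 lower (0.241%) with the Ncor1 guides, among them 20 G2/M genes higher and 4 genes of the stress response lower. That sgCtrl 1 lay nearer to the other libraries on the first principal component was known when this difference was chosen, so these calls are not independent evidence of it.

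Plk1, the kinase that drives mitotic entry, stood at 27.6, 60.4 and 72.0 CPM in sgCtrl 1, 2 and 3, at 193, 64.9 and 56.1 CPM with sgNcor1-1 and at 194, 72.2 and 59.2 CPM with sgNcor1-2. Ttk, the spindle checkpoint kinase, stood at 14.1, 25.9 and 25.5 CPM in sgCtrl 1, 2 and 3, at 76.9, 20.9 and 15.4 CPM with sgNcor1-1 and at 72.0, 22.8 and 17.0 CPM with sgNcor1-2. Number 1 was thus the lowest library of the control guide and the highest of each Ncor1 guide, in 4 of 4 pairs with the Ncor1 guides and 0 of 2 with sgCtrl. The differences were 2.88 ± 0.29 for Plk1 and 2.84 ± 0.37 for Ttk. The spindle protein gene Fam83d, the cell cycle gene Cdca3 and the S phase repressor E2f8 differed by 3.19, 2.79 and 2.77. The same split held for the levels of Mki67, the proliferation marker, at 122, 209 and 216 CPM in sgCtrl 1, 2 and 3 against 633 and 475 CPM in number 1 of sgNcor1-1 and sgNcor1-2 and 172 to 185 CPM in their other libraries. Cyclin A2 (Ccna2) stood at 34, 37.8 and 46.8 CPM in sgCtrl 1, 2 and 3 against 225 and 237 CPM in number 1 of the Ncor1 guides, whose other libraries lay between 32.8 and 51.7 CPM. The promoters of Plk1 (chr7:122159185-122159484, plus strand) and Ttk (chr9:83834439-83834738, plus strand) are shown in RefSeq windows as above. They were picked by the size of the difference among G2/M genes with such a window. Both hold TTTGAA, the core of the CHR element read by the DREAM and MMB complexes, in capitals on either strand. They also hold CCAAT, the box bound by NF-Y, marked in the same way.
Plk1: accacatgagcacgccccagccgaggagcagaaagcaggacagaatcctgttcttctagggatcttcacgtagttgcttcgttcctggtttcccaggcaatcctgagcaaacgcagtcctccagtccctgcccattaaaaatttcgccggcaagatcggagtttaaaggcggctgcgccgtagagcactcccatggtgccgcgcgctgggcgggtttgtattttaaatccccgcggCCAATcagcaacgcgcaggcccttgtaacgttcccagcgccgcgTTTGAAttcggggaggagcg
Ttk: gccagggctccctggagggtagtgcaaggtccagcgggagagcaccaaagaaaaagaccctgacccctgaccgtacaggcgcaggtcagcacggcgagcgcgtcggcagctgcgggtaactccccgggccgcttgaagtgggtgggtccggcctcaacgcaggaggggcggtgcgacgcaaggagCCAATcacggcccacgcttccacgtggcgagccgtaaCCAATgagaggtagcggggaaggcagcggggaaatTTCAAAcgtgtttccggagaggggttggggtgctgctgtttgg

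TTTGAA occurred in 29 of the 41 G2/M genes with a window (70.7%) against 14.9% of all windows, and CCAAT in 32 of 41 (78%) against 43.8%. In Ttk the CHR core is on the other strand, and CCAAT occurs at 2 places. Of 47 G1/S and replication genes, 45 had a difference above 0 with a median of 0.99, and 0 were called in edgeR, 22 of them at an unadjusted p under 0.05. Ccne2, the cyclin of S phase entry, stood at 16.4, 11.9 and 11.9 CPM in sgCtrl 1, 2 and 3, at 54.1, 19.98 and 10.5 CPM with sgNcor1-1 and at 57.7, 13.7 and 12.5 CPM with sgNcor1-2. The helicase subunit Mcm2 did not follow, with 201 and 186 CPM in number 1 of the Ncor1 guides and 162 to 345 CPM in their other libraries. Cdkn1a, the cyclin-dependent kinase inhibitor p21, stood at 436, 389 and 518 CPM in sgCtrl 1, 2 and 3, at 194, 582 and 376 CPM with sgNcor1-1 and at 199, 485 and 378 CPM with sgNcor1-2.

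Nupr1 stood at 49.0, 60.3 and 86.0 CPM in sgCtrl 1, 2 and 3, at 1.79, 111 and 73.4 CPM with sgNcor1-1 and at 2.14, 119 and 78.0 CPM with sgNcor1-2, a difference of -5.03 ± 0.47. Ddit3, the stress factor CHOP, stood at 163, 165 and 263 CPM in sgCtrl 1, 2 and 3, at 9.78, 262 and 157 CPM with sgNcor1-1 and at 10.2, 292 and 168 CPM with sgNcor1-2, a difference of -4.06 ± 0.54. Both were near the level of the other libraries in sgCtrl 1 and more than 10-fold below it in number 1 of the Ncor1 guides. Aldh1l2 and the mitochondrial protein gene Chchd10 differed by -4.31 and -4.10, and Acot2, a mitochondrial thioesterase, by -4.03. Trib3, a pseudokinase induced by ATF4, stood at 211, 91.5 and 199 CPM in sgCtrl 1, 2 and 3, at 13.8, 357 and 119 CPM with sgNcor1-1 and at 14.1, 325 and 157 CPM with sgNcor1-2, a difference of -4.64 ± 0.87 that was not among the calls. Atf4 itself stood at 386, 359 and 410 CPM in sgCtrl 1, 2 and 3, at 255, 685 and 394 CPM with sgNcor1-1 and at 281, 659 and 459 CPM with sgNcor1-2. Asns, asparagine synthetase, was at 269.9 CPM in sgCtrl 1 and at 232 and 272 CPM in the other control libraries, and at 140 and 141 CPM in number 1 of the Ncor1 guides against 194 to 306 CPM in their other libraries. The promoters of Nupr1 (chr7:126625421-126625720, minus strand) and Trib3 (chr2:152344011-152344310, minus strand) are shown in RefSeq windows as above. They were picked by the size of the difference among genes of this list with such a window. Each holds, in capitals and on the other strand, TGATGNAA, the composite element read by CHOP and ATF4.
Nupr1: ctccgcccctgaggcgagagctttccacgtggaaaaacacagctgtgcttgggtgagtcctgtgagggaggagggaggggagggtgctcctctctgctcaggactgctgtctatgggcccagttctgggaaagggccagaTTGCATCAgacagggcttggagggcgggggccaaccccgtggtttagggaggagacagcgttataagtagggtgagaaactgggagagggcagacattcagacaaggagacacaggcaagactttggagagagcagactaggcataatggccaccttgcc
Trib3: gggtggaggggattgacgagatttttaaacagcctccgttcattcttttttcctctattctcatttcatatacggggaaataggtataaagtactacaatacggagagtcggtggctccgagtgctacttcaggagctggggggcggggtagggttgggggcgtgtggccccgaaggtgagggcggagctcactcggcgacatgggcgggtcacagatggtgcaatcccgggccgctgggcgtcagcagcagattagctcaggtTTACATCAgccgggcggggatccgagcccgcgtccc

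TGATGNAA occurred in 11 of the 28 genes of this list with a window (39.3%) against 2.78% of all windows. Such matches describe the sequence, and whether the sites were bound was not tested. Txnip and Arrdc4, arrestins that respond to glucose through MondoA, had differences of -2.83 and -2.60 that were not among the calls. Txnip stood at 227, 40.9 and 152 CPM in sgCtrl 1, 2 and 3, at 101, 450 and 167 CPM with sgNcor1-1 and at 102, 410 and 192 CPM with sgNcor1-2. Of 26 cholesterol genes, 25 had a difference above 0 (median 0.85) and 0 were called in edgeR, with 17 at an unadjusted p under 0.05. Fdps, the synthase of farnesyl diphosphate, was lower in number 1 of every guide (shift -1.15), whereas Dhcr7, the last enzyme of the path, stood at 13.0, 13.4 and 19.2 CPM in sgCtrl 1, 2 and 3 against 65.5 and 62.1 CPM in number 1 of the Ncor1 guides, whose other libraries lay between 16.8 and 22.7 CPM. Myc was higher in sgCtrl 1, at 482 CPM against 180 and 195 CPM in sgCtrl 2 and 3, and lower in number 1 of the Ncor1 guides, at 226 and 221 CPM against 264 to 393 CPM.

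**Figure D3:**
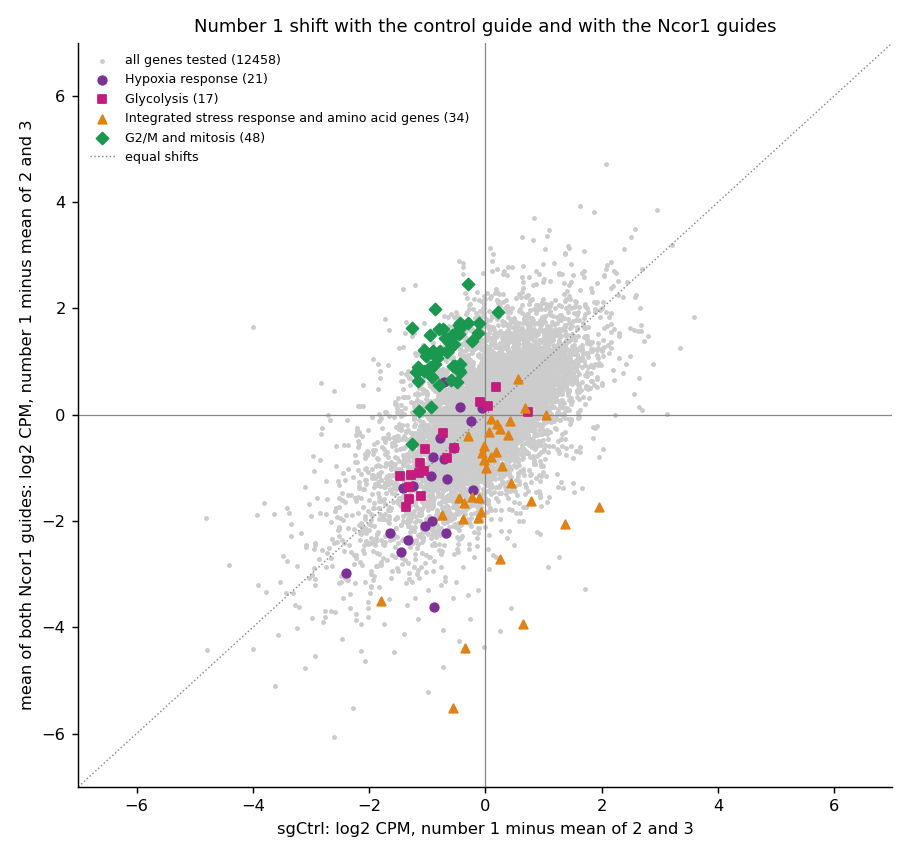
Number 1 shift of each of 12458 genes in log2 CPM, within sgCtrl on the x axis and as the mean of both Ncor1 guides on the y axis, with 4 gene lists in colour and the line of equal shifts dotted. Hypoxia and glycolysis genes lie mostly in the lower left along the line, the 48 G2/M genes all above the line and nearly all left of 0, and the genes of the integrated stress response mostly below the line near 0 on the x axis.

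The control guide has a single number 1 library, so this difference cannot be told apart from any other property of sgCtrl 1, and numbers 2 and 3 gave the spread (3 residual degrees of freedom). DESeq2 called 492 genes, among them all 77, and 43 G2/M genes, while edgeR called 0 without sgCtrl 2, sgCtrl 3, sgNcor1-1 1 or sgNcor1-2 1 (1017, 1065, 1411 and 1284 at an unadjusted p under 0.05, with 160, 175, 295 and 310 called by DESeq2 and 0 by limma-voom), 648 and 715 without sgNcor1-1 2 or 3, and 37 and 36 without sgNcor1-2 2 or 3. With sgNcor1-1 alone against sgCtrl edgeR called 0 genes (1012 at an unadjusted p under 0.05, 190 called by DESeq2, 0 by limma-voom) and with sgNcor1-2 alone 357.

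Numbers 2 and 3 were set together because they lay near each other on the first principal component, so a smaller difference between them follows from that choice. It is given for scale: its SD over genes was 0.345, against 0.846 for the number 1 shift, and edgeR called 0 of 12458 genes (0%), with 555 at an unadjusted p under 0.05 (4.45%) and a smallest adjusted p of 0.67. DESeq2 and limma-voom each called 1 gene, with 641 and 584 at that level. Egr1, an immediate early factor, stood at 67.7 and 110 CPM in sgCtrl 2 and 3, at 46.8 and 93.8 CPM with sgNcor1-1 and at 59.1 and 133 CPM with sgNcor1-2, lower in number 2 in 3 of 3 guides by 0.97 on the log2 scale, with an adjusted p of 0.79 in edgeR and 0.0217 in DESeq2, the range over the alternatives being 0.0217 to 1. Egr1 was higher still in number 1, at 254, 134 and 156 CPM. The metalloproteinase Mmp19 and the shear-responsive factor Klf2, next by unadjusted p, had differences of -0.99 ± 0.22 and -0.75 ± 0.17 (adjusted p = 0.79 for each). As lists, hypoxia and glycolysis had medians of -0.34 and -0.38 for number 2 minus 3, the integrated stress response 0.33 and G1/S 0.29, against 0.00 over all genes. Replication-dependent histones lay furthest from 0, at -0.52. Cholangiocyte markers were at -0.38, interferon-stimulated genes at -0.28 and MYC targets and ribosome biogenesis at 0.28.

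Composition of the transcripts moved with the shift. Over 12382 genes with a known transcript (99.4%), the rank correlation of the shift with GC content was -0.29, and -0.22, -0.29 and -0.27 within sgCtrl, sgNcor1-1 and sgNcor1-2. The same correlation was -0.25 for number 2 minus 3 and -0.23 for number 1 against 2 and 3 in B16, and that of the Hepa1-6 shift with transcript length was 0.07. The median shift went from 0.25 in the fifth of genes lowest in GC to -0.27 in the fifth highest. With the GC trend removed, a step added after the correlation was seen, the median was -1.24 for hypoxia, -0.87 for glycolysis, -0.43 for ribosomal proteins, 0.64 for G2/M and -0.49 for the integrated stress response. The part of GC content in single genes was not tested.

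**Figure D4:**
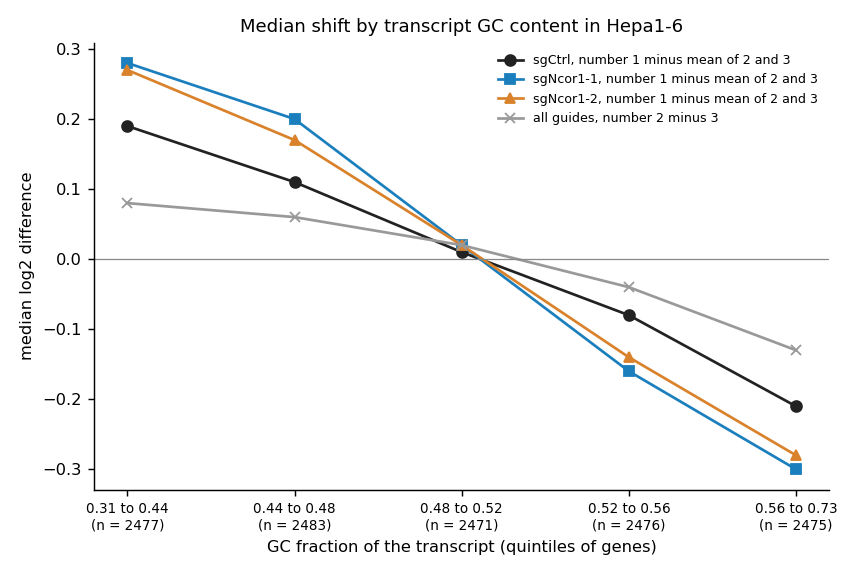
Median log2 difference over genes in 5 bins of transcript GC fraction, in Hepa1-6, for number 1 minus the mean of numbers 2 and 3 within each guide and for number 2 minus 3 over all guides (grey crosses). Every line goes from above 0 in the bin lowest in GC to below 0 in the highest, and the grey line spans the least, from 0.08 to -0.13.

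The libraries of B16 were not used to choose the grouping, and their number 1 shift was another one. Across the 10878 genes tested in both lines, the 2 shifts correlated at a Pearson r of -0.09 and a Spearman rho of -0.14, as a description across genes. In B16 edgeR called 787 of 12347 genes (6.37%) between number 1 and numbers 2 and 3, 488 higher (3.95%) and 299 lower (2.42%), while with the number as a factor of 3 levels it called 3056. Hypoxia genes had a median of 0.30 in B16 with 18 of 24 above 0 and 4 called higher, and glycolysis 0.09 with 2 of 17 called higher, against -0.04 over all genes. The hypoxia medians differed between guides, at 0.13, -0.05 and 0.74 within B16 sgCtrl, sgNcor1-1 and sgNcor1-2. G2/M genes had a median of 0.39 with 43 of 48 above 0 and 10 called higher, and lay above 0 in all 3 guides, including the control guide (0.32). MYC targets and ribosome biogenesis, at 0.26 in Hepa1-6 (0.28 there for number 2 minus 3), were at -0.96 in B16 with 5 of 36 called lower. The difference between the lines was not tested.

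Of the 12 Hepa1-6 genes furthest above 0, 8 were tested in B16, 4 of them lay above 0 there and 1 was called. This was Cxcl1, at 13.0, 2.47 and 3.96 CPM in B16 sgCtrl 1, 2 and 3, at 19.6, 1.02 and 0.698 CPM with sgNcor1-1 and at 7.81, 1.04 and 1.54 CPM with sgNcor1-2. Cxcl1 rose in number 1 of B16 by 3.08 ± 0.45 on the log2 scale (adjusted p = 0.0142 in edgeR, higher in 6 of 6 pairs). Of the 12 furthest below 0, 7 were tested and none lay below 0 in B16 (0 called by edgeR). Aldh1l2 had a shift of 1.13 ± 0.30 in B16 (adjusted p = 0.0569), and Nupr1 one of 0.91 ± 0.45 (adjusted p = 0.208). Single members of the lists differed in direction or size between the lines. Pgk1, lower in number 1 of Hepa1-6, stood in B16 at 6418, 3109 and 2384 CPM in sgCtrl 1, 2 and 3, at 7699, 2018 and 1686 CPM with sgNcor1-1 and at 5618, 1071 and 1659 CPM with sgNcor1-2, and rose in number 1 by 1.79 ± 0.22 (adjusted p = 0.00867, higher in 6 of 6 pairs). Ndrg1, also lower in number 1 of Hepa1-6, rose in B16 by 0.87 ± 0.18 (adjusted p = 0.0295, higher in 6 of 6 pairs). Tnfaip3, whose groups overlapped in Hepa1-6, rose in B16 by 2.32 ± 0.33 (adjusted p = 0.0131, higher in 6 of 6 pairs), at 25.6, 86.6 and 27.5 CPM in number 1 of sgCtrl, sgNcor1-1 and sgNcor1-2 and between 6.39 and 11.2 CPM in the others. Plk1 was not called in B16, at 0.13 ± 0.25.

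The genes with the largest calls in B16 were others. Gpc4, a glypican of the cell surface, stood at 21.1, 4.88 and 2.12 CPM in B16 sgCtrl 1, 2 and 3, at 25.1, 0 and 0 CPM with sgNcor1-1 and at 19.1, 0 and 0.053 CPM with sgNcor1-2. It rose in number 1 (adjusted p = 0.0214), as did S100a6, a calcium-binding protein, at 99.9, 17.5 and 22.6 CPM in sgCtrl 1, 2 and 3, at 221, 4.15 and 14.7 CPM with sgNcor1-1 and at 82.9, 2.95 and 16.4 CPM with sgNcor1-2 (adjusted p = 0.0204). The palmitoyltransferase gene Zdhhc15, Pnma5 of the paraneoplastic antigen family and the peptide hormone apelin (Apln) rose too, with adjusted p between 0.0237 and 0.0339. Rarb, a retinoic acid receptor, fell by 4.16 on the log2 scale (adjusted p = 0.00809) and Atp2a3, a calcium pump, by 4.56 (adjusted p = 0.00852). Shisa2, the melanocyte channel gene Trpm1 and the amino acid carrier gene Slc7a8 fell with adjusted p between 0.0109 and 0.0492. Of these 9 libraries, sgNcor1-1 1 lay furthest out, at -96.5 on the first principal component of B16 with a scaling factor of 0.792. Without sgNcor1-1 1 or sgNcor1-2 1 edgeR called 0 genes (2331 and 2967 at an unadjusted p under 0.05, 934 and 1370 called by DESeq2, 0 by limma-voom), without sgCtrl 1 or 2 it called 266 and 311, without sgNcor1-1 2 or 3 it called 162 and 142, without sgNcor1-2 2 it called 473, and DESeq2 on all 9 called 2414.

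**Figure D5:**
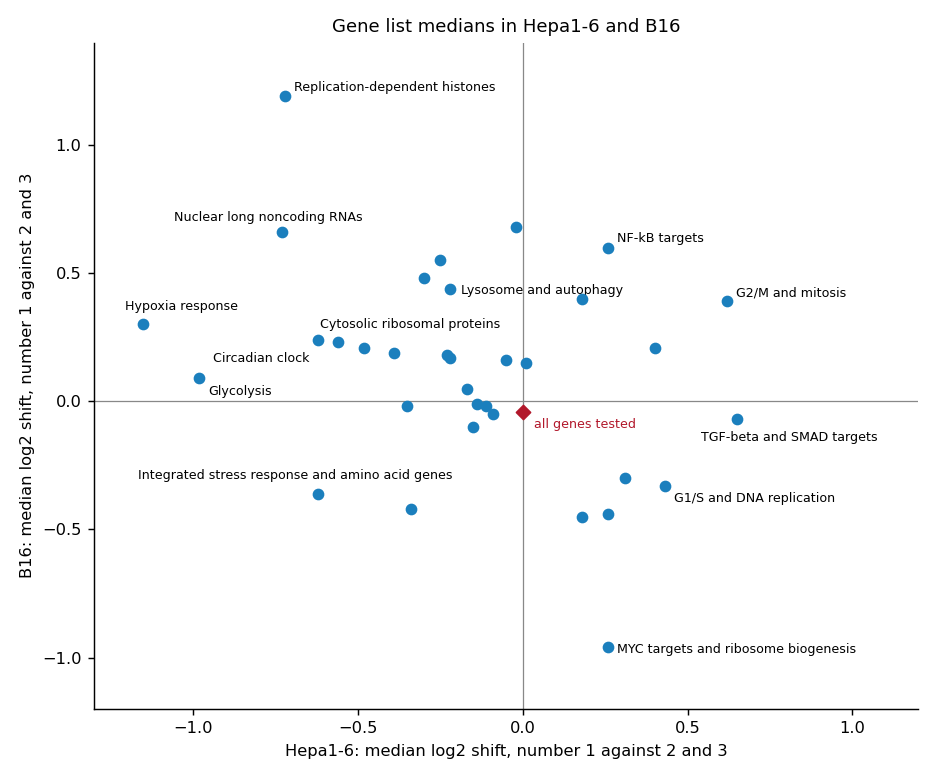
Median log2 shift of number 1 against 2 and 3 for each gene list, in Hepa1-6 on the x axis and in B16 on the y axis, with all genes tested as the red diamond. Hypoxia lies at -1.15 in Hepa1-6 and 0.30 in B16, MYC targets and ribosome biogenesis at 0.26 and -0.96, and G2/M above 0 in both.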

How the data were processed

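RNA of mouse Hepa1-6 and B16 cells was polyadenylated and read on an Illumina instrument, per the labels' protocols. Per the submitters' processing notes and design text, read quality was assessed in FastQC 0.12.1, adaptors came off in Trim Galore 0.6.7, Bowtie2 2.2.5 did the alignment to mm10, and RSEM 1.2.8 the counting. Annotation and strand setting are not given in the sources used here. Deposited tables hold RSEM expected counts of 32015 gene symbols, of which 7.87% (Hepa1-6) and 7.19% (B16) were not whole, and they were rounded here. Each of the 18 columns was tied to 1 library by its name, and 0 columns were left unused.

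The members, gene lists and tests were chosen with earlier results of these data known, so no pattern already seen counts as independent support. Tests used the quasi-likelihood test of edgeR 4.0.16 (R 4.3.3) with its filter on low counts, TMM factors and a robust spread, adjusted by Benjamini-Hochberg over all genes tested; calls are adjusted p under 0.05. Number 1 against 2 and 3 had guide as covariate, number 2 against 3 a number with 3 levels, and the difference 1 mean for each guide and number class. DESeq2 1.42.0, limma-voom (limma 3.58.1), other factors and filters and leaving out each library were alternatives. CPM use TMM; log2 CPM use a prior count of 2. Errors are standard errors. A fold of a low gene on this scale depends on the prior count.

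No label states that the libraries within a group are separate cultures; p-values then cover only library-to-library spread, possibly technical. No 2 libraries were alike within sampling noise: the lowest chi-square divided by its degrees of freedom was 11.57 in Hepa1-6 and 6.608 in B16. Deviations from the guide means correlated between libraries of the same number at r of 0.61, 0.59 and 0.91 for number 1, 0.05, 0.19 and 0.67 for number 2 and 0.38, 0.34 and 0.75 for number 3.

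Named genes were the 12 furthest each way among genes with a mean of at least 5 CPM, a gene name and number 1 beyond both other libraries in each guide. Beside these stand the fixed anchor genes of the 39 lists and up to 3 members furthest from 0, up to 5 called genes each way for the difference and for B16, or the 3 with the smallest p where 0 were called, and Ncor1. Of 1149 list entries 35 were not found. Transcript lengths, GC content, gene positions and promoter windows came from annotation and RefSeq tables of GRCm38.p6 (mm10), matched by gene ID.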

Additional observations from a re-analysis of the deposited data

Results flagged for a closer look

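Of the 47 genes that edgeR called higher in the difference of the number 1 shift, Ncor1 guides minus sgCtrl, the 5 named by rule were Fam83d at 3.19, Plk1 at 2.88, Ttk at 2.84, Cdca3 at 2.79 and E2f8 at 2.77 on the log2 scale. Of the 30 called lower, the 5 named had differences of -5.03 for Nupr1, -4.31 for Aldh1l2, -4.10 for Chchd10, -4.06 for Ddit3 and -4.03 for Acot2.

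In 6 gene lists both control pairs (number 1 minus 2 and minus 3) went one way and all 4 pairs of the Ncor1 guides the other; this was not tested over the lists. The list medians of the difference were 1.89 for G2/M and mitosis, 0.99 for G1/S and DNA replication, 0.85 for cholesterol biosynthesis and uptake, 0.55 for heat shock, -0.64 for MondoA and FOXO targets and -0.39 for glucocorticoid targets.

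Among the 6 Hepa1-6 libraries numbered 2 and 3, the TMM scaling factor of sgNcor1-1 3 lay apart from the rest, at 0.943 against 0.986 to 0.996, with a gap of 0.811 of the range (limit 0.625). It was 1 of 40 quantities looked at in this way, and chance alone marks about 1 in 20.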

How the results depend on the processing

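For number 1 against 2 and 3, no paired analysis was possible because the replicate number is itself the comparison. For the difference between guides, a replicate block for numbers 2 and 3, added after seeing the data, gave 135 genes called and 29 G2/M genes. Libraries of the same number correlated between guides at 0.05 to 0.67 for number 2 and at 0.34 to 0.75 for number 3. The highest values were those between the Ncor1 guides. No label says that the numbers pair the samples, so the main fit of the difference has no such block. Of the results that answer a comparison, 127 alternative values stayed within the limits set and 41 did not. Signs were followed for named genes and lists only. Among named genes no called shift or called difference changed sign. Under some alternative the shift changed sign in 16 of 189 named genes, none called, and the median did in 4 of 35 lists. Without sgCtrl 1 the shift of Myc went from 0.21 to -0.47, that of Ankrd1 from 0.23 to -0.31 and the heat shock median from -0.05 to 0.19, and without sgNcor1-1 1 that of Txnip from -0.49 to 0.08. Of single genes and smaller lists 98 alternative values no longer passed and 50 moved. Leaving out 1 library gave 2248 to 5774 genes called for number 1 against 2 and 3 in Hepa1-6, lowest without sgNcor1-1 1 and 2465 without sgNcor1-2 1. The list medians then ran from 0.3 to 1.19 for G2/M, from -1.2 to -0.37 for the integrated stress response, from -1.39 to -0.95 for hypoxia, from -1.05 to -0.91 for glycolysis and from -0.62 to -0.45 for ribosomal proteins, and 7 to 12 lists had a median beyond 0.5, against 10. With the GC trend removed, added after seeing the data, glycolysis was at -0.87. For number 2 against 3, DESeq2, limma-voom and edgeR with no filter on low counts each called 1 gene, and leaving out 1 library gave 0 to 1 (1 without sgNcor1-2 3). For the difference between guides, DESeq2 called 492 genes (43 G2/M) and edgeR with no filter 755 (46 G2/M), and leaving out 1 library gave 0 to 715 genes and 0 to 45 G2/M genes. With 1 Ncor1 guide against sgCtrl, added after seeing the data, edgeR called 0 genes and 0 G2/M genes for sgNcor1-1, and 357 and 41 for sgNcor1-2. For B16, DESeq2 called 2414 genes, the fit with a number of 3 levels 3056, and leaving out 1 library gave 0 to 1061. The cause of these changes was not tested; leaving out a library lowers the residual degrees of freedom. Without sgCtrl 1 the difference cannot be fitted. The 10 genes named for the difference missed the threshold in 5 to 7 of 16 alternatives each. Depth limits genes with low counts in number 1, such as Btg4.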
